A study of Mus musculus with 6 samples.

Results

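Fatty acid oxidation and peroxisome genes were followed in tumour cells of the KP mouse lung adenocarcinoma model, with and without a functional Lkb1. The set was defined by gene name and holds 76 protein-coding genes of 55487 genes in the table. It takes in acyl-CoA synthetases (Acsl, Acsm), carnitine acyltransferases (Cpt1, Cpt2, Crat, Crot), acyl-CoA dehydrogenases (Acad) and the hydratases, isomerases and hydroxyacyl-CoA dehydrogenases of the beta-oxidation spiral (Ech, Eci, Hadh). It also takes in acyl-CoA oxidases (Acox) with Ehhadh, the Abcd transporters, acyl-CoA thioesterases (Acot) and peroxins (Pex). Of these genes 65 had enough counts to be tested, among 15978 tested genes in all. The sgNeo group carried a control guide and is Lkb1 wild type, and the sgLkb1 group carried a guide against Lkb1 and is Lkb1 mutant. Both groups were KP tumours of mouse lung, and both were collected 11 weeks after tumour initiation. GFP-positive CD45-negative cells were sorted, and there were 3 libraries per group. Mouse age, the number of animals behind a library and how the tumours were started are not stated by the labels. No label ties the libraries to different mice, and the p-values therefore measure only how these samples scatter, which may be technical.

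Fatty acids are first joined to coenzyme A by acyl-CoA synthetases. Long-chain acyl groups enter mitochondria as carnitine esters through Cpt1, which malonyl-CoA inhibits, and Cpt2, and are then shortened by repeated rounds of dehydrogenation, hydration, a further dehydrogenation and thiolysis. Peroxisomes, which peroxins assemble, take very long-chain and branched acyl groups through Abcd transporters and oxidise them with acyl-CoA oxidases that make hydrogen peroxide. Thioesterases undo the activation step. Lkb1 is the kinase that activates AMPK, and AMPK phosphorylates acetyl-CoA carboxylase, the source of malonyl-CoA. Alveolar type 2 cells, a cell of origin of this tumour, make surfactant lipid and are rich in peroxisomes.

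Total counts ranged from 26007503 to 28986526 in sgNeo and from 29613678 to 41729299 in sgLkb1 libraries. Stk11, the gene of Lkb1, was at 68.3, 33.4 and 82.7 CPM in sgNeo and at 23.5, 25.6 and 25.3 CPM in sgLkb1 replicates 1, 2 and 3 (edgeR adjusted p = 0.023). That call was lost without any single library other than sgNeo replicate 2 (edgeR adjusted p = 0.053 to 0.076). The labelled tissue was checked on 10 alveolar type 2 markers. All 10 were detected and all 10 were lower in sgLkb1, with a summed level of 128690 to 151910 CPM in sgNeo and 12931 to 21223 CPM in sgLkb1. Fibroblast markers were higher in 4 of 8 genes, with sums of 37.5 to 119 CPM in sgNeo and 181 to 1412 CPM in sgLkb1. Endothelial markers were higher in 3 of 6 (26.7 to 43.6 against 66.4 to 115 CPM) and mesothelial markers in 2 of 5 (172 to 428 against 828 to 1417 CPM). Of 10 macrophage and monocyte markers 1 was higher and 1 lower, with overlapping sums. B and plasma cell markers were lower in 3 of 6, with sums of 16.2 to 26.2 CPM in sgNeo and 4.17 to 6.56 CPM in sgLkb1. Of 6 T and NK cell markers Trbc2 alone had enough counts to be tested and was higher (sums of 2.83 to 6.42 against 17.6 to 21.2 CPM). Of 4 club cell markers 1 was lower, and the sums of the club cell, ciliated cell and neutrophil markers overlapped between the groups. Adipocyte markers summed to at most 1.93 CPM in sgNeo and 5.65 CPM in sgLkb1, with Adipoq at 0 in every sgNeo library. The part of these cell types in the results below was not tested, and in bulk libraries fewer cells of a type and less RNA per cell cannot be told apart.

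Some fatty acid oxidation and peroxisome genes were lower in Lkb1-mutant tumour cells, and most members did not pass the test. With edgeR's quasi-likelihood test and Benjamini-Hochberg adjustment over all tested genes at 0.05, 14 of 65 tested members fell and 2 rose. The 14 that fell are 21.5% of the tested members, beside 8.6% of all tested genes that were called lower, and the 2 that rose are 3.08%, beside 7.05% called higher. In either direction 24.6% of members and 15.7% of all tested genes were called. The median log2 fold change (sgLkb1 minus sgNeo) was -0.31 over the tested members and 0.02 over all tested genes, and 49 of 65 members had a negative value. The libraries of the groups did not overlap for 31 members lower and 7 higher in sgLkb1, which is 58.5% of the tested members beside 36.5% of all tested genes. The summed level of all 76 members was 4421 to 4607 CPM in sgNeo and 3091 to 3640 CPM in sgLkb1. The count of lower members was 6 without sgNeo replicate 2 or sgLkb1 replicate 2, 7 without sgNeo replicate 1 and 8 without sgNeo replicate 3. The count of higher members was 0 without sgNeo replicate 1 or 2, and 1 without sgNeo replicate 3 or sgLkb1 replicate 2. Acoxl, Acot1, Acot2, Pex11a, Echdc3 and Hadh passed in all 6 fits that left out a library, and the other 10 called members lost the call in at least 1 of them.

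**Figure D1:**
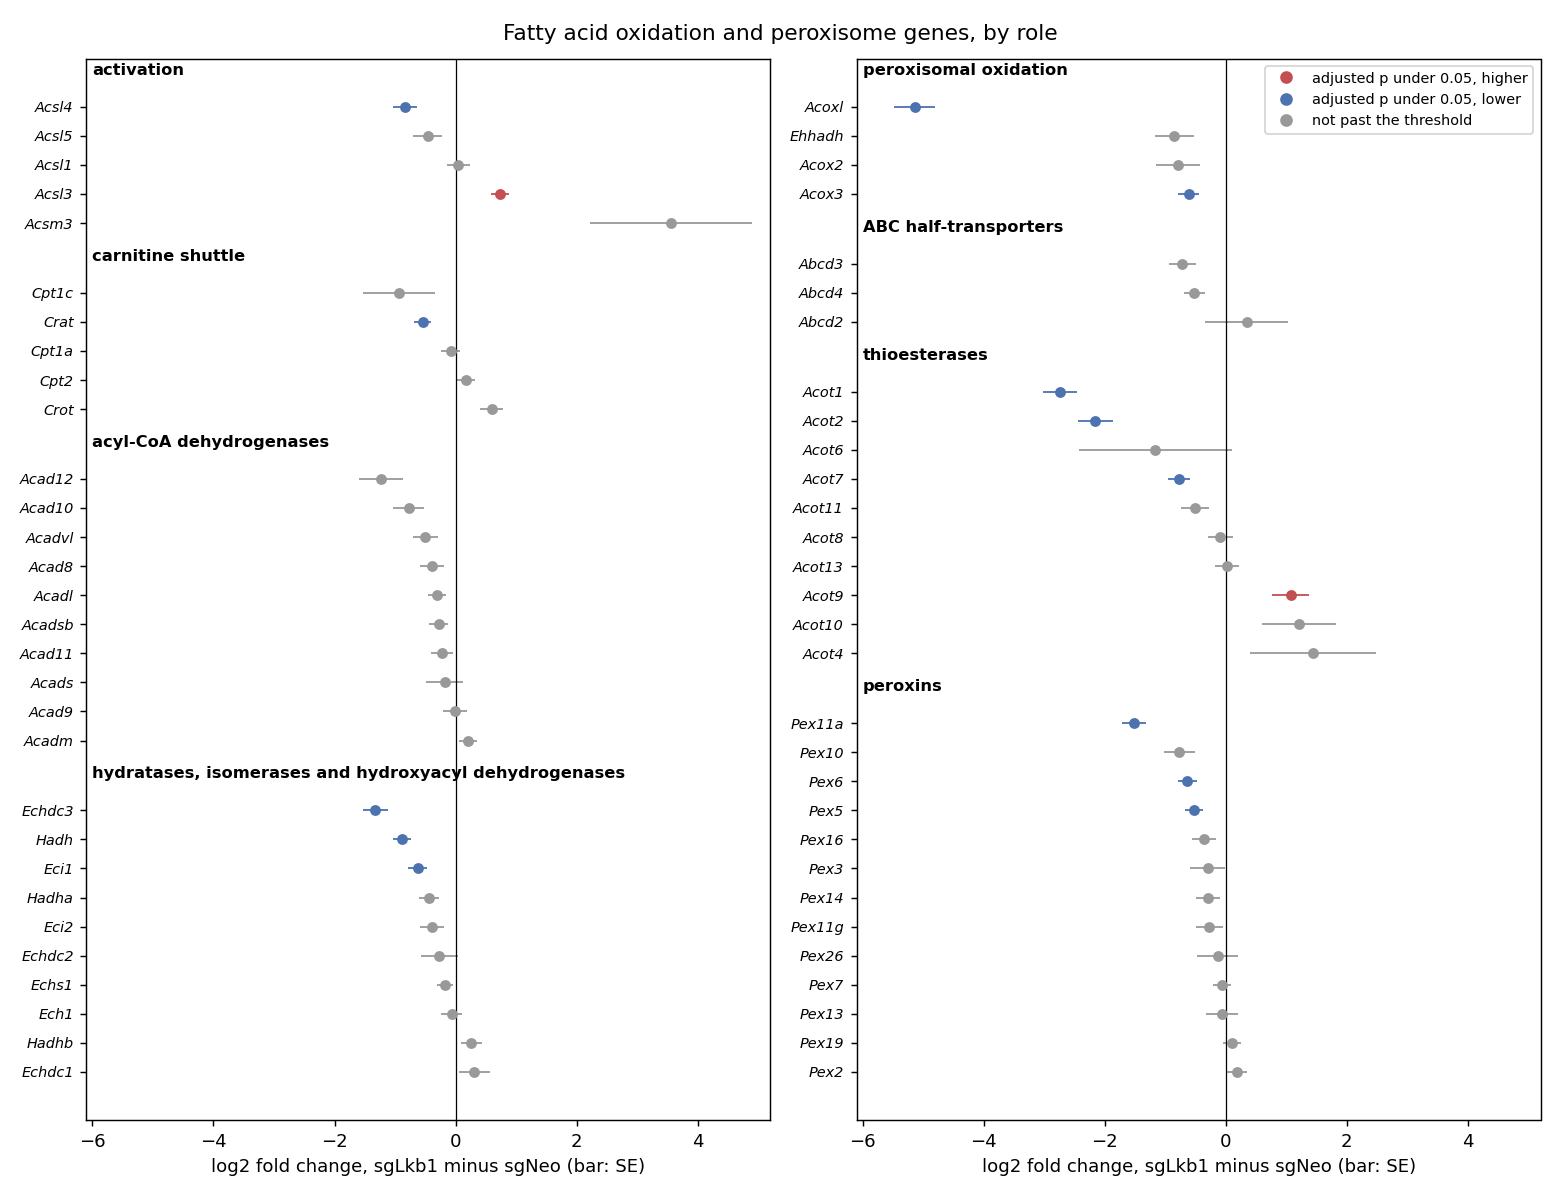
Log2 fold change (sgLkb1 minus sgNeo, x axis) of 60 of the tested members, grouped by role, with bars showing the SE of edgeR's estimate. Most points lie left of 0; the 13 blue points passed the threshold as lower and the 2 red points, Acsl3 and Acot9, as higher.

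**Figure D2:**
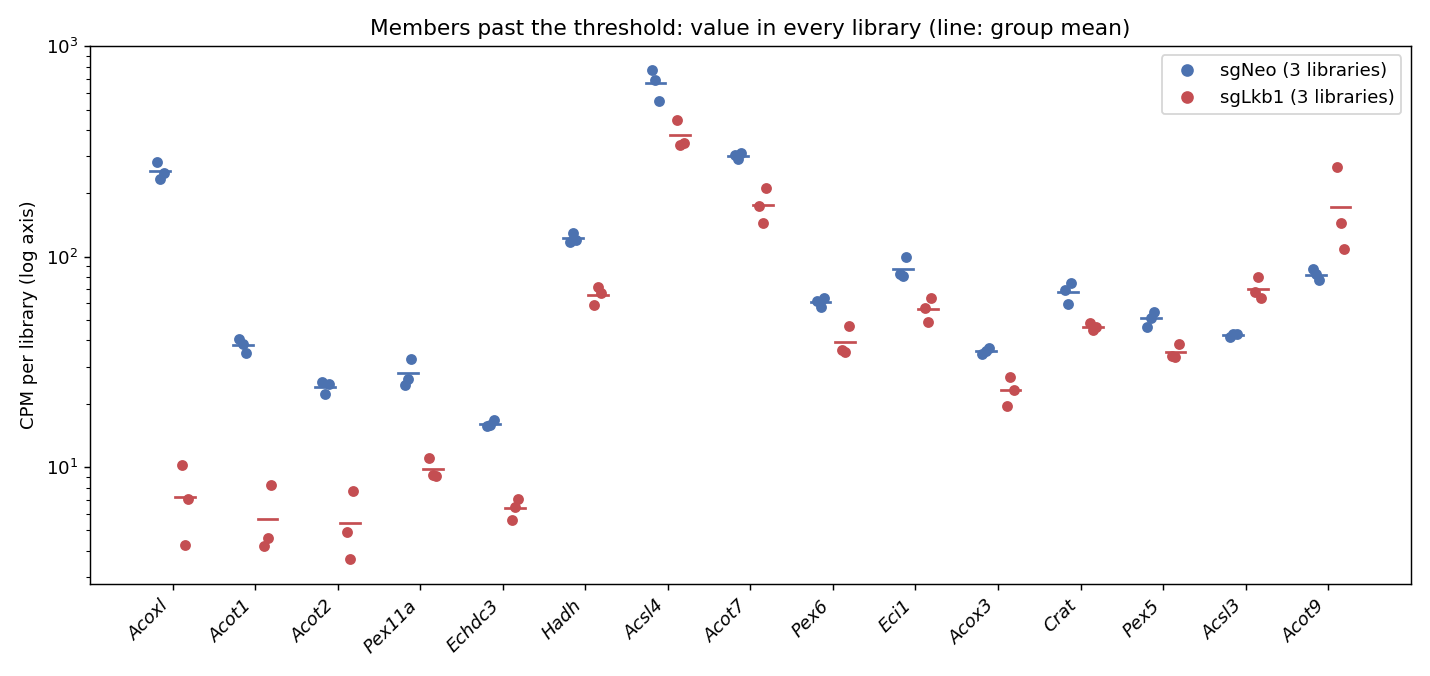
Level in every library (CPM, log axis) of 15 members past the threshold, ordered by fold change, with lines at the group means (n = 3 libraries each). For each of the 15 genes all libraries of a group lie on the same side of the other group; the gap is widest for Acoxl.

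Among the enzymes that activate fatty acids, a synthetase of polyunsaturated fatty acids fell and another long-chain synthetase rose. Acsl4, which prefers arachidonic acid, was at 768, 694 and 547 CPM in sgNeo and at 444, 338 and 348 CPM in sgLkb1 replicates 1, 2 and 3. The groups did not overlap, with sgLkb1 lower (log2 fold change -0.83 with SE 0.20, edgeR adjusted p = 0.026). Acsl3, an enzyme of the endoplasmic reticulum and lipid droplets, was at 41.7, 42.8 and 43.1 CPM in sgNeo and at 67.7, 80.4 and 63.6 CPM in sgLkb1. The sgNeo libraries were nearly equal and every sgLkb1 library was higher (log2 fold change 0.73 with SE 0.15, edgeR adjusted p = 0.014). Its exons overlap those of Utp14b on the same strand. Acsl5 was at 406 ± 32.4 and 294 ± 90.9 CPM (SD, n = 3) and Acsl1 at 13.9 ± 0.49 and 14.4 ± 2.28 CPM, and edgeR called neither (adjusted p = 0.22 and 0.90). Per kilobase of merged exons, Acsl4 and Acsl5 made up 56.5 ± 5.72% and 38.4 ± 5.35% of the summed Acsl level in sgNeo, and 47.2 ± 1.87% and 40.2 ± 5.46% in sgLkb1. The share of Acsl3 was 4.49 ± 0.41% in sgNeo and 11.3 ± 3.00% in sgLkb1, with no overlap between the groups. Acsl4 lost its call without sgNeo replicate 1 or 2 or sgLkb1 replicate 2 or 3 (edgeR adjusted p = 0.070 to 0.10), and Acsl3 without any sgNeo library (edgeR adjusted p = 0.050 to 0.073). Acsl5 passed as lower without sgLkb1 replicate 1 (log2 fold change -0.71, edgeR adjusted p = 0.044).

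The Acsl3 start is shown because it is 1 of the 2 members that rose. The 250 bases before the RefSeq start, chr1:78657575-78657824 on the plus strand (GRCm38.p6), are given with GC boxes (GGGCGG) and CCAAT boxes on either strand in capitals.
Acsl3 upstream: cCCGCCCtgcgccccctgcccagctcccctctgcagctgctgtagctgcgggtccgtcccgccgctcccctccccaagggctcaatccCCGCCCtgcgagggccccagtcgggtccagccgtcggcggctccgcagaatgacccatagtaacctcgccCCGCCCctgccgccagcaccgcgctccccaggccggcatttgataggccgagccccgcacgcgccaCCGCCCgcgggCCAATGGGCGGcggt
The stretch holds 6 such matches, 5 of them GC boxes, and has a GC content of 75.6%.

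**Figure D3:**
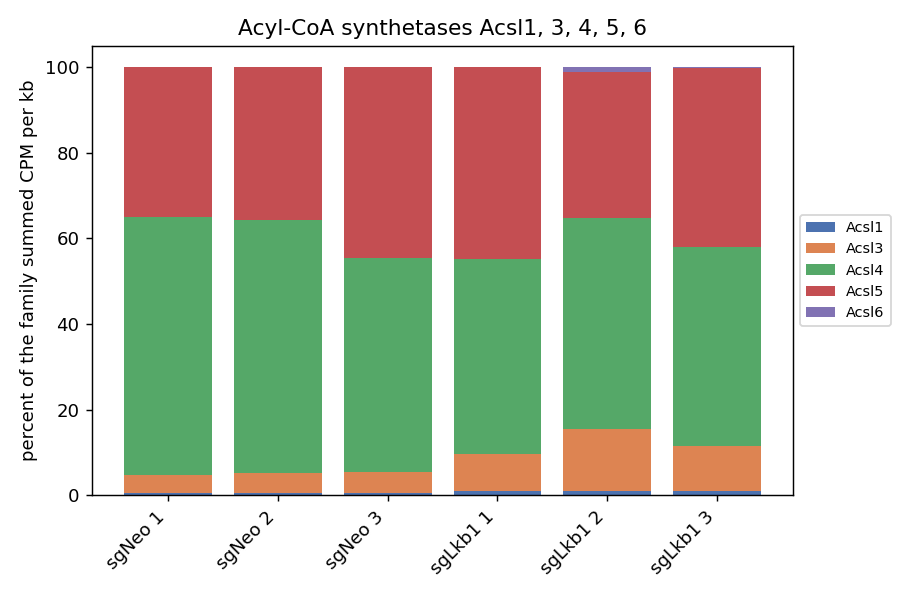
Share of each Acsl gene in the summed level of the family in every library (percent of CPM per kilobase of merged exons, GENCODE M21). Acsl3 takes 4.07 to 4.88% in the sgNeo libraries and 8.64 to 14.5% in the sgLkb1 libraries.

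Of the 5 tested carnitine acyltransferases Crat fell, and the mitochondrial entry enzymes Cpt1a and Cpt2 did not pass the test. Cpt1a, the entry step, was at 58.4, 62.6 and 66.2 CPM in sgNeo and at 52.7, 55.9 and 68.3 CPM in sgLkb1 (log2 fold change -0.08 with SE 0.15, edgeR adjusted p = 0.77). The groups overlap. Cpt2, the inner-membrane acyltransferase, was at 29.5, 35.6 and 36.8 CPM and at 36.9, 38.7 and 39.1 CPM (log2 fold change 0.17 with SE 0.15, edgeR adjusted p = 0.49), and its lowest sgLkb1 library lay just above its highest sgNeo library. Crat, which moves acetyl groups between carnitine and coenzyme A, was at 69.1, 59.8 and 74.8 CPM in sgNeo and at 48.2, 44.8 and 46.5 CPM in sgLkb1. Every sgLkb1 library was lower. Crat fell (log2 fold change -0.54 with SE 0.14, edgeR adjusted p = 0.039), and its exons overlap those of Dolpp1 on the other strand. Crot, the peroxisomal octanoyltransferase, was at 46.8, 47.5 and 45.1 CPM in sgNeo and at 76.9, 81.3 and 52.3 CPM in sgLkb1. All sgLkb1 libraries were higher, but Crot did not pass (log2 fold change 0.60 with SE 0.19, edgeR adjusted p = 0.068). DESeq2 called it (adjusted p = 0.020), as did edgeR without a filter on low counts (adjusted p = 0.028) and without sgLkb1 replicate 3 (edgeR adjusted p = 0.019). Crat kept its call without sgLkb1 replicate 1, and lost it without each other library (edgeR adjusted p = 0.076 to 0.15) and with no filter (edgeR adjusted p = 0.096). Of the other Cpt1 genes, Cpt1c was at 3.82 ± 0.95 and 1.99 ± 1.51 CPM (SD, n = 3) and missed the threshold (edgeR adjusted p = 0.33). Per kilobase, Cpt1a made up 91.7 ± 1.80% of the Cpt1 level in sgNeo and 95.7 ± 2.45% in sgLkb1.

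With TMM scaling and the filter on low counts edgeR called 0 of the 10 acyl-CoA dehydrogenases, and 9 had a negative log2 fold change. Of all tested genes 15.7% were called in either direction. At an unadjusted p under 0.05 there were 3 (Acad10, Acad12 and Acadvl), DESeq2 called Acad10 and Acad12 (adjusted p = 0.033 and 0.012), and limma-voom called Acad12 (adjusted p = 0.043). With other settings of edgeR, Acad12 passed as lower with no filter (adjusted p = 0.043) and Acadvl with a replicate block (log2 fold change -0.53, adjusted p = 0.043). Acadvl, for very long chains, was at 85.6, 102 and 109 CPM in sgNeo and at 51.5, 72.3 and 85.0 CPM in sgLkb1 (log2 fold change -0.50 with SE 0.21, edgeR adjusted p = 0.14). Every sgLkb1 library lay below every sgNeo library, by a small margin for the nearest pair, and exons of Acadvl overlap those of Dvl2 on the other strand. Acadm, for medium chains, was at 52.7, 50.9 and 62.5 CPM and at 68.5, 63.1 and 59.7 CPM (log2 fold change 0.20 with SE 0.15, edgeR adjusted p = 0.40), with overlapping groups. Acadl, for long chains, had the highest level of the family per kilobase, 98.2 CPM per kilobase in sgNeo and 79.3 in sgLkb1, and did not pass (log2 fold change -0.31, edgeR adjusted p = 0.20). The libraries of the groups did not overlap for 6 of the 10, all lower in sgLkb1, beside 36.5% of all tested genes in either direction. With the largest change of the family, Acad12 was at 7.26, 8.06 and 6.25 CPM in sgNeo and at 1.81, 4.09 and 3.30 CPM in sgLkb1 (log2 fold change -1.23 with SE 0.37, edgeR adjusted p = 0.057). Acad8, Acad9, Acad11, Acads and Acadsb had log2 fold changes from -0.40 (Acad8) to -0.01 (Acad9), none of them past the threshold. Acad10 and Acad12 share 17.3% of their 50-base stretches with other genes, each other included.

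Further along the beta-oxidation spiral 3 of 10 tested genes fell and none rose. Of all tested genes 8.6% were called lower and 7.05% higher. Hadh, the hydroxyacyl-CoA dehydrogenase of short and medium chains, was at 117, 129 and 120.2 CPM in sgNeo and at 58.7, 71.8 and 67.5 CPM in sgLkb1 replicates 1, 2 and 3. The groups lay far apart compared with their spread (log2 fold change -0.89 with SE 0.14, edgeR adjusted p = 0.0060). Echdc3, named for its enoyl-CoA hydratase domain, was at 15.6, 15.8 and 16.7 CPM in sgNeo and at 5.60, 6.48 and 7.09 CPM in sgLkb1. It fell in all 3 sgLkb1 libraries by a like amount (log2 fold change -1.33 with SE 0.21, edgeR adjusted p = 0.0049). Eci1, an isomerase that lets unsaturated chains enter the spiral, was at 82.3, 81.2 and 99.6 CPM in sgNeo and at 57.1, 49.1 and 64.0 CPM in sgLkb1. It fell without overlap (log2 fold change -0.63 with SE 0.16, edgeR adjusted p = 0.035), but kept the call in the leave-one-out fits only without sgLkb1 replicate 3 (edgeR adjusted p = 0.063 to 0.15 in the others). RLE scaling also ended it (edgeR adjusted p = 0.050). The other isomerases and hydratases did not pass. Ech1 was at 103 ± 16.8 and 98.1 ± 14.3 CPM (SD, n = 3), Echs1 at 85.0 ± 0.85 and 75.3 ± 6.55 CPM, and Eci2 at 48.3 ± 9.72 and 36.9 ± 5.82 CPM in sgNeo and sgLkb1. Echdc2 (log2 fold change -0.27) and Echdc1, a decarboxylase that removes ethylmalonyl-CoA (log2 fold change 0.31), had overlapping groups. Of the 50-base stretches of Echdc1, 82.8% also occur in Gm46218, Rnf146 or other genes, so its counts are uncertain.

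The subunits of the mitochondrial trifunctional protein had log2 fold changes of opposite sign, and neither passed. Hadha, the alpha subunit, was at 75.4, 66.7 and 72.3 CPM in sgNeo and at 47.8, 46.5 and 63.4 CPM in sgLkb1 (log2 fold change -0.44 with SE 0.17, edgeR adjusted p = 0.11). Hadhb, the beta subunit with the thiolase, was at 99.5, 92.5 and 105.7 CPM and at 145.9, 106.0 and 104.6 CPM (log2 fold change 0.26 with SE 0.17, edgeR adjusted p = 0.36). The Hadha groups did not overlap and the Hadhb groups did. Without sgLkb1 replicate 3 Hadha passed as lower (log2 fold change -0.61, edgeR adjusted p = 0.045). The ratio of Hadhb to Hadha CPM, looked at after these values were seen, was 1.32, 1.39 and 1.46 in sgNeo and 3.05, 2.28 and 1.65 in sgLkb1. Every sgLkb1 ratio was higher, with a wider spread. Of the 50-base stretches of Hadhb, 19.7% also occur in other genes, Gm13910 and Gm9108 among them, so its counts may be shared with them. The genes start back to back, Hadha on the minus and Hadhb on the plus strand of chromosome 5, and the 85 bases between their annotated starts (GENCODE M21) are shown because both genes share them. Between the RefSeq starts there are 272 bases, so the shared stretch depends on the annotation. The 85 bases lie at chr5:30155163-30155247 (GRCm38.p6, plus strand, from the RefSeq promoter table), with GC boxes in capitals.
Hadha-Hadhb: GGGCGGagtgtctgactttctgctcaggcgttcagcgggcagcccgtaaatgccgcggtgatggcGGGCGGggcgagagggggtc
The stretch holds 2 GC boxes and has a GC content of 69.4%.

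**Figure D4:**
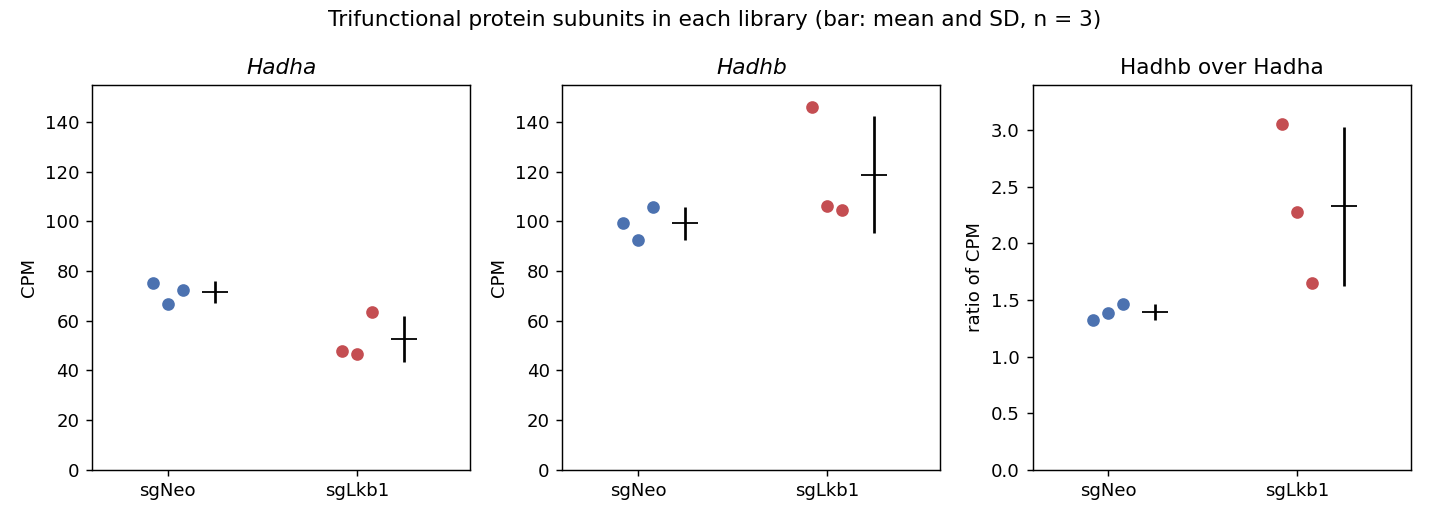
Levels of Hadha and Hadhb in every library (CPM) and the ratio of Hadhb to Hadha. The ratio is 1.32 to 1.46 in the sgNeo libraries and 1.65 to 3.05 in the sgLkb1 libraries.

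Peroxisomal oxidation held the member with the largest change of all tested members. Acoxl, a gene named for its likeness to the acyl-CoA oxidases (chr2:127838876-128123873, plus strand, GRCm38), was at 282.9, 234.4 and 248.9 CPM in sgNeo and at 10.3, 4.28 and 7.09 CPM in sgLkb1. It was 35.4-fold lower in the fit (log2 fold change -5.14 with SE 0.34, edgeR adjusted p = 0.00024), and none of its 50-base stretches occurs in another gene. Acox3, the oxidase of branched chains, was at 34.4, 35.5 and 36.7 CPM in sgNeo and at 19.5, 26.8 and 23.2 CPM in sgLkb1. It fell without overlap (log2 fold change -0.62 with SE 0.17, edgeR adjusted p = 0.043). Only the fit without sgLkb1 replicate 1 kept that call (edgeR adjusted p = 0.064 to 0.14 in the others), and upper-quartile scaling and no filter ended it (edgeR adjusted p = 0.052 and 0.072). Ehhadh, the bifunctional hydratase and dehydrogenase, was at 13.0, 17.6 and 14.1 CPM and at 12.4, 5.93 and 6.40 CPM (log2 fold change -0.85 with SE 0.32, edgeR adjusted p = 0.11). It passed as lower without sgLkb1 replicate 1, the highest of its group (log2 fold change -1.26, edgeR adjusted p = 0.014). Acox2, the oxidase of bile acid intermediates, was at 6.48 ± 2.50 and 3.74 ± 0.25 CPM (SD, n = 3) with overlapping groups. The 10 alveolar type 2 markers, whose sums are given above, were lower in the same libraries.

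The 250 bases before the RefSeq start of Acoxl, chr2:127854378-127854627 on the plus strand (GRCm38.p6), are shown because this gene changed most. That start lies inside the GENCODE gene, so the stretch is 1 of the possible starts. CCAAT boxes on either strand are in capitals.
Acoxl upstream: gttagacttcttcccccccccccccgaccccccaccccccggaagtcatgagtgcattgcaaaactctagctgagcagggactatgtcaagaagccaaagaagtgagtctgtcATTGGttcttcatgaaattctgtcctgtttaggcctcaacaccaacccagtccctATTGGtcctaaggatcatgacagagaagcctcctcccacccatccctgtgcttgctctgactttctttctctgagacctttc
It holds 2 CCAAT boxes and no GC box.

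Among the Abcd transporters of peroxisomes and lysosomes, Abcd3, an importer of long and branched acyl groups, was at 333.4, 280.4 and 267.0 CPM in sgNeo and at 238.7, 142.5 and 154.2 CPM in sgLkb1. Its groups did not overlap and it did not pass (log2 fold change -0.72 with SE 0.22, edgeR adjusted p = 0.067). DESeq2 called it lower (adjusted p = 0.026), as did edgeR with no filter (adjusted p = 0.028), with a replicate block (adjusted p = 0.018) and without sgLkb1 replicate 1 (adjusted p = 0.0081). Abcd4, a lysosomal cobalamin transporter, was at 28.2 ± 4.08 and 19.6 ± 1.54 CPM (SD, n = 3; edgeR adjusted p = 0.080). Abcd2 was near 1 CPM in both groups.

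Among the thioesterases 3 of 10 tested genes fell and 1 rose, beside 8.6% of all tested genes called lower and 7.05% called higher. Acot1, the cytosolic enzyme, was at 40.8, 38.3 and 34.8 CPM in sgNeo and at 4.23, 4.62 and 8.21 CPM in sgLkb1 (log2 fold change -2.74 with SE 0.28, edgeR adjusted p = 0.00096). Acot2, its mitochondrial neighbour, was at 25.4, 22.3 and 24.8 CPM and at 4.89, 3.65 and 7.72 CPM (log2 fold change -2.16 with SE 0.29, edgeR adjusted p = 0.0028). Both were low in every sgLkb1 library. They share sequence, with 19.3% of the 50-base stretches of Acot1 and 27.7% of those of Acot2 found in other Acot genes, so the split of reads between them is uncertain. Their sum, which does not depend on that split, was 66.2, 60.5 and 59.6 CPM in sgNeo and 9.12, 8.26 and 15.9 CPM in sgLkb1. Acot7, a cytosolic enzyme abundant in brain, was at 304.6, 290.4 and 312.1 CPM in sgNeo and at 174, 144 and 212 CPM in sgLkb1. It fell without overlap (log2 fold change -0.77 with SE 0.18, edgeR adjusted p = 0.023), and lost the call without any sgNeo library or sgLkb1 replicate 2 (edgeR adjusted p = 0.073 to 0.091). Acot9, a mitochondrial enzyme, was at 87.0, 82.4 and 77.1 CPM in sgNeo and at 265.8, 144.6 and 108.2 CPM in sgLkb1. Every sgLkb1 library was higher, by amounts that differed widely between libraries (log2 fold change 1.07 with SE 0.31, edgeR adjusted p = 0.049). Acot9 no longer passed without any sgNeo library or sgLkb1 replicate 2 (edgeR adjusted p = 0.064 to 0.15) and by limma-voom (adjusted p = 0.064). Acot8, the peroxisomal thioesterase, was at 14.7 ± 1.41 and 13.9 ± 2.16 CPM (SD, n = 3), and Acot13 at 24.1 ± 3.80 and 24.4 ± 4.65 CPM, with overlapping groups. Acot11 was at 13.0 ± 1.19 and 9.13 ± 1.79 CPM without overlap and missed the threshold (edgeR adjusted p = 0.18). Acot4, Acot6 and Acot10 were below 1 CPM in every library, and Acot10 shares 43.2% of its 50-base stretches with other genes, Acot9 among them.

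Acot2 and Acot1 lie on the plus strand of chromosome 12, with 15.6 kb from the end of Acot2 to the start of Acot1. Their upstream stretches are shown because both genes fell (chr12:83987611-83987860 and chr12:84009252-84009489, GRCm38.p6, RefSeq), with CCAAT and GC boxes on either strand in capitals.
Acot2 upstream: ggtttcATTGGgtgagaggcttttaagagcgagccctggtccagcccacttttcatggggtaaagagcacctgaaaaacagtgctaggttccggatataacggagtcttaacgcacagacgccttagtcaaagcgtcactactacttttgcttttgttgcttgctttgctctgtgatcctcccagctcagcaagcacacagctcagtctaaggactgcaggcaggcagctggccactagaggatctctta
Acot1 upstream: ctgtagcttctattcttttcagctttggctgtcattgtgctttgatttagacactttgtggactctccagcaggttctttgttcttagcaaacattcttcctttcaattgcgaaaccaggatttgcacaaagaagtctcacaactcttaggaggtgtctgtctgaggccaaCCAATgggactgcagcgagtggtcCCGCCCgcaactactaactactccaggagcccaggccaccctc
In a global alignment that allowed gaps, 71.6% of the 201 bases aligned without a gap were identical. Gapped bases are left out of that share. No unrelated pair was aligned beside them, so whether the stretches are more alike than others was not tested.

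Of 16 tested peroxins 3 fell and none rose, beside 8.6% of all tested genes called lower and 7.05% called higher. Pex11a, which promotes peroxisome division, was at 24.7, 26.3 and 32.7 CPM in sgNeo and at 11.1, 9.16 and 9.04 CPM in sgLkb1. All sgLkb1 libraries were lower (log2 fold change -1.51 with SE 0.20, edgeR adjusted p = 0.0023). Pex6, an ATPase that pulls the import receptor out of the membrane, was at 61.6, 58.0 and 63.8 CPM in sgNeo and at 36.2, 35.1 and 46.9 CPM in sgLkb1. It fell (log2 fold change -0.63 with SE 0.16, edgeR adjusted p = 0.033), and only the fit without sgLkb1 replicate 3 kept the call (edgeR adjusted p = 0.073 to 0.15 in the others). Pex5, the receptor that imports matrix enzymes, was at 46.5, 51.3 and 54.9 CPM in sgNeo and at 33.8, 33.5 and 38.7 CPM in sgLkb1. It fell without overlap (log2 fold change -0.53 with SE 0.15, edgeR adjusted p = 0.046), and lost the call without any single library (edgeR adjusted p = 0.053 to 0.18). It also lost it under RLE and upper-quartile scaling (edgeR adjusted p = 0.064 for both), with no filter (edgeR adjusted p = 0.13), with the 10 most abundant genes removed (edgeR adjusted p = 0.059) and by limma-voom (adjusted p = 0.050). Pex10, of the ubiquitin ligase of the import machinery, was at 11.3 ± 1.69 and 6.66 ± 1.32 CPM (edgeR adjusted p = 0.081), and DESeq2 called it lower (adjusted p = 0.050). Its ligase partner Pex2 had a log2 fold change of 0.19 (edgeR adjusted p = 0.48). Of the membrane assembly genes, Pex19 was at 62.4 ± 2.49 and 66.7 ± 9.50 CPM and Pex3 at 58.2 ± 9.26 and 47.2 ± 19.8 CPM, with overlapping groups. Pex7, Pex11g, Pex13, Pex14, Pex16 and Pex26 did not pass and had log2 fold changes from -0.36 (Pex16) to -0.06 (Pex13 and Pex7). Pex3 passed as lower without sgLkb1 replicate 1 (log2 fold change -0.69, edgeR adjusted p = 0.030).

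The 11 members below the filter on low counts were Acsl6, Acsm1, Acsm2, Acsm4, Acsm5, Cpt1b, Eci3, Acot3, Acot5, Acot12 and Pex5l. Acsl6, a long-chain synthetase of brain, had 1, 2 and 3 counts in sgNeo and 12, 513 and 73 counts in sgLkb1 replicates 1, 2 and 3. Most of its counts came from sgLkb1 replicate 2. Without the filter edgeR called it higher (log2 fold change 5.98, adjusted p = 4.7e-08). In the leave-one-out fits that tested it, edgeR called Acsl6 without sgLkb1 replicate 1 (adjusted p = 0.0051) and not without sgNeo replicate 1, 2 or 3 (adjusted p = 0.086 to 0.10). Eci3, a peroxisomal isomerase, had 0 counts in sgNeo and 23, 3 and 1 in sgLkb1. Against a floor of 3 counts over the sgNeo group it was at least 5.91-fold higher in sgLkb1, and at least 1.37-fold higher without sgLkb1 replicate 1, which held 23 of its 27 counts. Of the 50-base stretches of Eci3, 14.05% also occur in other genes, Eci2 among them. Its exons overlap those of 4933417A18Rik on the other strand, so these few counts are uncertain. Acot12 (0 against 16 counts) was at least 3.5-fold higher against the same floor, and at least 2.3-fold higher without sgLkb1 replicate 2. Without the filter edgeR called neither Eci3 nor Acot12 (adjusted p = 0.10 and 0.21). Acsm4 had no count in any library. Acsm3, a medium-chain synthetase, was tested at 0, 0 and 0.48 CPM in sgNeo and 3.74, 0.60 and 1.43 CPM in sgLkb1 and missed the threshold (edgeR adjusted p = 0.11). It passed as higher by DESeq2 (adjusted p = 0.027), with no filter (edgeR adjusted p = 0.0038) and without sgNeo replicate 3 (edgeR adjusted p = 0.033), and its exons overlap those of Eri2 on the other strand.

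A RefSeq promoter window, 250 bases before to 50 after the start (GRCm38.p6), was found for 61 of the 76 members, of which 52 were tested. Motifs were searched on both strands. The GC box GGGCGG was in 36 of the 52 windows (69.2%) and in 62.0% of 11474 windows of tested genes, and the CCAAT box was in 21 (40.4%) and in 38.7%. The cAMP element TGACGTCA was in 2, Pex11g and Pex13 (3.85%), and in 3.13% of all. The PPAR direct repeat, 2 copies of AGGTCA with 1 base between, was in 0 of the 52 and in 0.052% of all, so these letters were rare in such windows altogether. Of the 12 members that fell and had a window, 9 held a GC box and 4 a CCAAT box.

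Other genes of the pathway were counted in 6 lists. The shares to set beside each list are 8.6% of all tested genes called lower and 7.05% called higher. Of 5 genes of malonyl-CoA control 3 fell, and the control enzyme Acaca was among them. Acaca, which makes malonyl-CoA, was at 52.8, 47.3 and 52.4 CPM in sgNeo and at 18.1, 14.1 and 16.0 CPM in sgLkb1 (log2 fold change -1.66 with SE 0.16, edgeR adjusted p = 0.00083). Mlycd, which breaks malonyl-CoA down, was at 46.9 ± 2.56 and 27.8 ± 4.93 CPM (SD, n = 3; edgeR adjusted p = 0.022), and Prkaa2, a catalytic subunit of AMPK, at 9.13 ± 3.59 and 2.27 ± 0.16 CPM (edgeR adjusted p = 0.0091). Prkaa1, the other catalytic subunit, named after its values were seen, went the other way, at 50.5, 38.1 and 44.1 CPM in sgNeo and at 81.8, 72.8 and 55.5 CPM in sgLkb1. All sgLkb1 libraries were higher, and Prkaa1 missed the threshold by little (log2 fold change 0.66 with SE 0.19, edgeR adjusted p = 0.051). It passed as higher with a replicate block (edgeR adjusted p = 0.034), under RLE and upper-quartile scaling, under either change of filter and with the 10 most abundant genes removed (edgeR adjusted p = 0.012 to 0.044), by DESeq2 (adjusted p = 0.010) and without sgLkb1 replicate 3 (edgeR adjusted p = 0.030). Prkaa1 did not pass by limma-voom (adjusted p = 0.058) or without any other single library (edgeR adjusted p = 0.069 to 0.20). Mlycd lost its call without any sgNeo library or sgLkb1 replicate 2 (edgeR adjusted p = 0.060 to 0.099). Acacb, the mitochondrial carboxylase, was at 5.82 ± 1.74 and 1.53 ± 0.99 CPM and missed the threshold (edgeR adjusted p = 0.069). Acacb passed as lower by DESeq2 (adjusted p = 0.012), by limma-voom (adjusted p = 0.046), with no filter (edgeR adjusted p = 0.0055) and with a replicate block (edgeR adjusted p = 0.027).

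Of 14 other mitochondrial oxidation and electron transfer genes 5 fell and none rose. They were Acaa2, the last thiolase of the spiral (193.5 ± 6.35 to 114 ± 1.29 CPM, SD, n = 3; edgeR adjusted p = 0.0082), Etfb, an electron carrier of the dehydrogenases (edgeR adjusted p = 0.011), and Pcca, of propionyl-CoA carboxylase (edgeR adjusted p = 0.0058). Ivd and Pccb (edgeR adjusted p = 0.013 and 0.044) are named after their values were seen. Leaving out sgNeo replicate 2 ended the call of Acaa2 (edgeR adjusted p = 0.051), and Etfb lost it without sgLkb1 replicate 2 (edgeR adjusted p = 0.057). Pccb passed in the leave-one-out fits only without sgLkb1 replicate 3 (edgeR adjusted p = 0.089 to 0.16 in the others), and not under RLE or upper-quartile scaling or with the 10 most abundant genes removed (edgeR adjusted p = 0.056 to 0.058).

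Of 32 other peroxisomal genes 4 rose and 6 fell, beside 7.05% of all tested genes called higher and 8.6% called lower. Far1, which makes the fatty alcohol for ether lipids, was at 271.5, 249.2 and 200.5 CPM in sgNeo and at 2885, 1837 and 1558 CPM in sgLkb1 (log2 fold change 3.12 with SE 0.28, edgeR adjusted p = 0.00074). Gnpat, the first enzyme of ether lipid synthesis, was at 285.1, 281.0 and 246.5 CPM and at 154.6, 115.3 and 145.3 CPM (log2 fold change -0.97 with SE 0.17, edgeR adjusted p = 0.0079). Far1 and Gnpat thus moved in opposite directions in all libraries. Agps, of the same pathway and named after its values were seen, did not pass (log2 fold change 0.67 with SE 0.29, edgeR adjusted p = 0.17). Cat, the catalase that removes hydrogen peroxide, was at 679.1, 506.0 and 522.5 CPM in sgNeo and at 172.5, 120.0 and 105.3 CPM in sgLkb1 (log2 fold change -2.10 with SE 0.24, edgeR adjusted p = 0.0014). Pxmp4 fell as well (40.4 ± 6.44 to 17.2 ± 0.59 CPM, SD, n = 3; edgeR adjusted p = 0.0033). Phyh, of branched-chain alpha-oxidation (42.7 ± 10.9 to 129 ± 60.7 CPM; edgeR adjusted p = 0.016), and the coenzyme A hydrolase Nudt19 (32.0 ± 3.58 to 72.5 ± 26.4 CPM; edgeR adjusted p = 0.023) rose. So did Ephx2 (edgeR adjusted p = 0.031), named after its value was seen, which no longer passed without sgNeo replicate 1 or 2 or sgLkb1 replicate 2 or 3 (edgeR adjusted p = 0.058 to 0.10). Leaving out sgNeo replicate 2 or 3 ended the call of Phyh (edgeR adjusted p = 0.067 to 0.079), and Nudt19 lost it without any sgNeo library or sgLkb1 replicate 2 (edgeR adjusted p = 0.055 to 0.089).

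Of 12 regulators of oxidation genes 2 fell, beside 8.6% of all tested genes called lower. The 2 regulators were Lpin1 (21.6 ± 3.51 to 6.17 ± 1.43 CPM, SD, n = 3; edgeR adjusted p = 0.0030) and Nr1h3 (20.5 ± 3.56 to 10.8 ± 3.20 CPM; edgeR adjusted p = 0.048). Nr1h3 passed in the leave-one-out fits only without sgLkb1 replicate 3 (edgeR adjusted p = 0.080 to 0.15 in the others), and not under RLE or upper-quartile scaling or with the 10 most abundant genes removed (edgeR adjusted p = 0.058 to 0.062). Ppara, the nuclear receptor for fatty acids, was at 1.89, 1.54 and 1.91 CPM in sgNeo and at 0.42, 0 and 0.17 CPM in sgLkb1. Its groups did not overlap and it did not pass (edgeR adjusted p = 0.067), but it passed by DESeq2 (adjusted p = 0.0094), by limma-voom (adjusted p = 0.038), with no filter (edgeR adjusted p = 0.0086), with the stricter filter (edgeR adjusted p = 0.048) and without sgLkb1 replicate 1 (edgeR adjusted p = 0.044). Its coactivator Ppargc1a was at 10.3, 9.52 and 11.6 CPM in sgNeo and at 9.03, 6.22 and 7.29 CPM in sgLkb1 (edgeR adjusted p = 0.23). Of 14 tested uptake, binding and carnitine supply genes 2 fell, Fabp5 (279 ± 36.6 to 118 ± 52.8 CPM; edgeR adjusted p = 0.033) and Acbd4 (34.8 ± 0.97 to 19.3 ± 2.42 CPM; edgeR adjusted p = 0.011). Fabp5 lost its call without any sgNeo library or sgLkb1 replicate 3 (edgeR adjusted p = 0.077 to 0.10) and leaving out sgNeo replicate 2 ended that of Acbd4 (edgeR adjusted p = 0.051). Of 5 ketone body enzymes edgeR called 0, with 4 negative log2 fold changes and 2 at an unadjusted p under 0.05. Oxct1, which lets tissues use ketone bodies, is named after its values were seen. It missed the threshold in the main fit (edgeR adjusted p = 0.058). It passed as lower by DESeq2 (adjusted p = 0.017) and limma-voom (adjusted p = 0.046). With upper-quartile scaling, no filter, a replicate block or without sgLkb1 replicate 1 edgeR called it lower (adjusted p = 0.0044 to 0.04955). Under RLE scaling, with the stricter filter or with the 10 most abundant genes removed Oxct1 did not pass (edgeR adjusted p = 0.053 to 0.068). Nor did it without any other single library (edgeR adjusted p = 0.091 to 0.17).

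**Figure D5:**
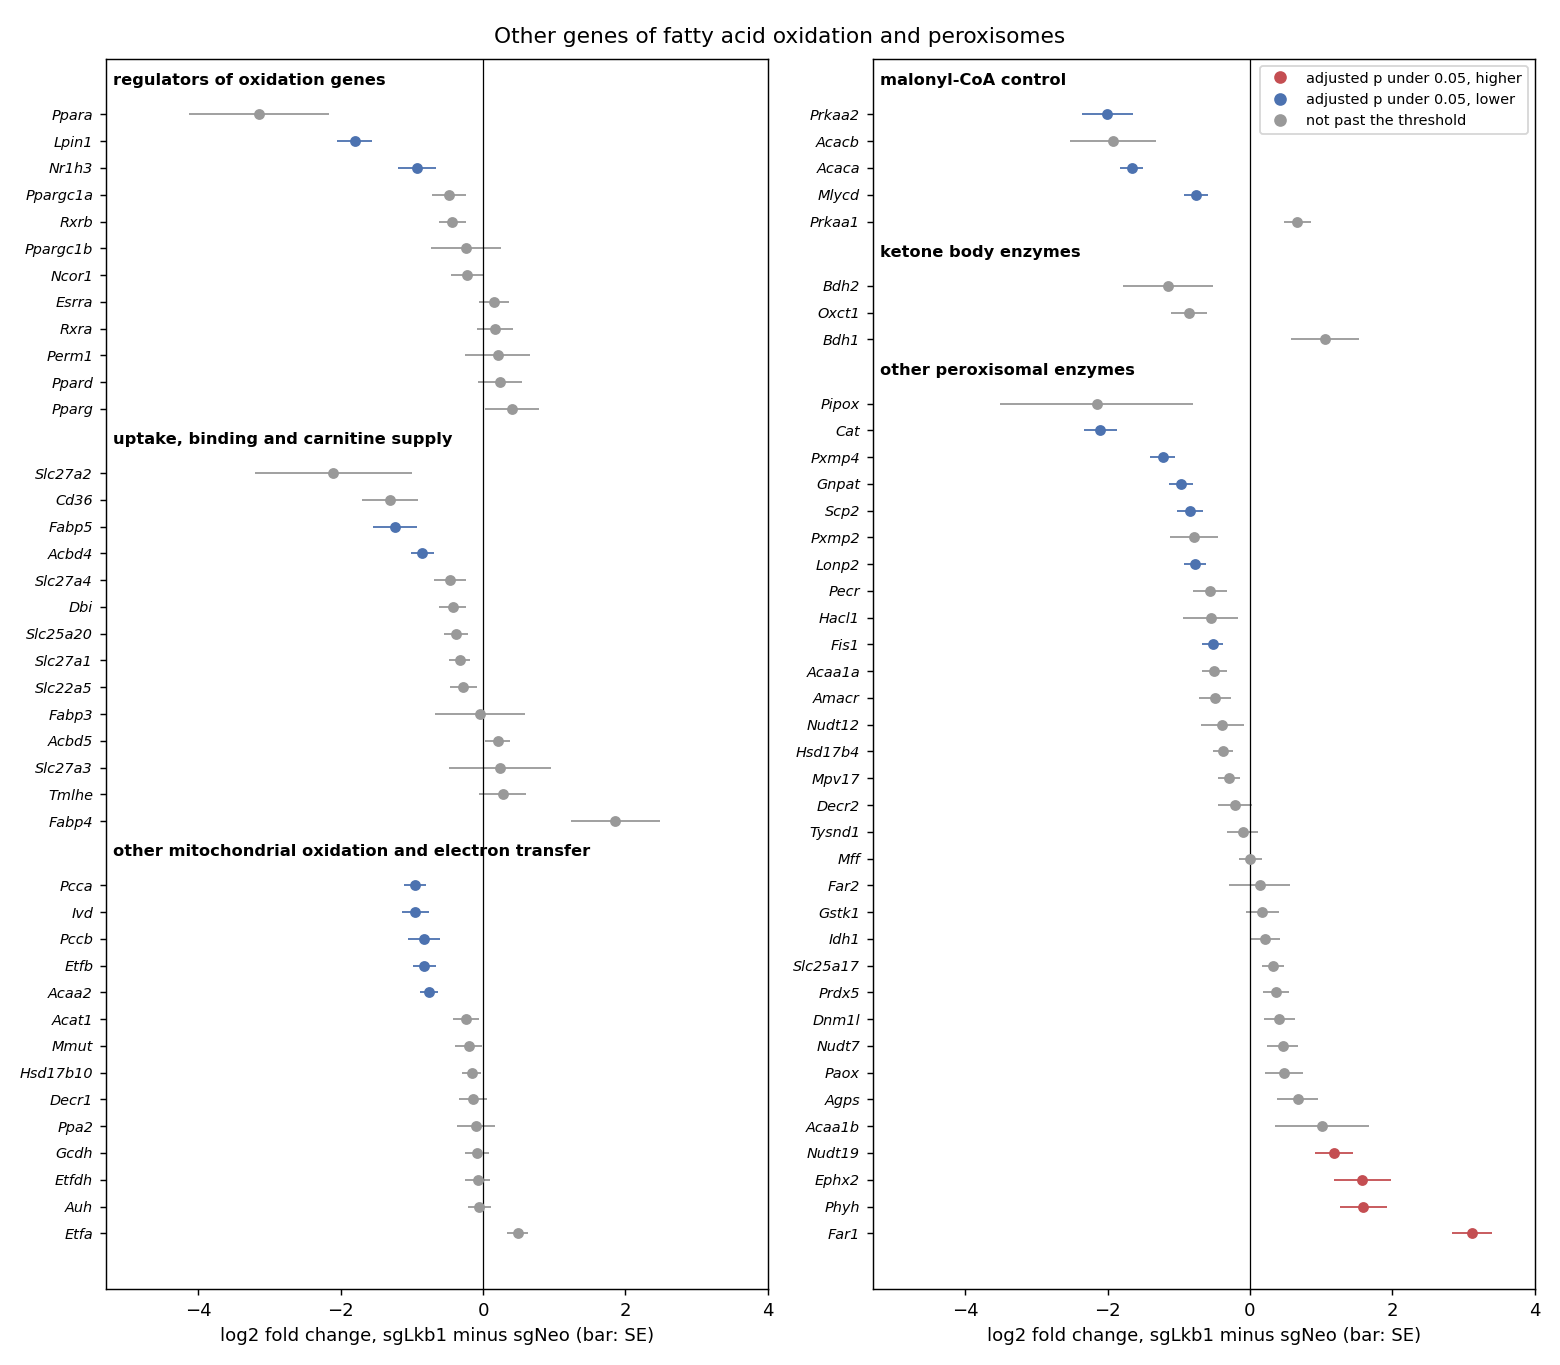
Log2 fold change (sgLkb1 minus sgNeo) of tested genes of the 6 partner lists, with bars showing the SE of edgeR's estimate and colours marking genes past the threshold. Far1 lies farthest to the right at 3.12, and the called genes outside the other peroxisomal list are all lower.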

How the data were processed

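Bulk RNA was sequenced from sorted tumour cells, with 3 libraries of each genotype. The authors deposited 1 table of expected counts per gene, which are not all whole numbers. FastQC, STAR, RSEM, DESeq2 and the build GRCm38 are listed in the submitters' processing notes. Tool versions, annotation release and strandedness are not given in these sources. Expected counts were rounded and tested with edgeR 4.0.16 in R 4.3.3 (filterByExpr, TMM scaling, quasi-likelihood test of genotype, Benjamini-Hochberg adjustment over all tested genes, threshold 0.05). The SE of a log2 fold change was taken from the F statistic. CPM used TMM library sizes. Alternatives used RLE or upper-quartile scaling, no filter, a stricter filter (3 libraries at a CPM of 1 or more), a replicate block, limma-voom 3.58.1, DESeq2 1.42.0, removal of the 10 most abundant genes, and leaving out each library. The edgeR script was tested on simulated data. All 76 members matched GENCODE M21 by gene ID, which gave positions, merged exon lengths and 50-base stretches shared with other genes. Sequences are from RefSeq (GRCm38.p6).

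The members and lists were chosen with earlier results of these data known. Members past the threshold and fixed members are given with all 6 values, and each partner list with at most the 3 lowest p-values in each direction beside Stk11, Ppara, Ppargc1a, Acaca, Acacb and Cat. Some genes that this rule names are counted but not reported here by name or drawn in the plots. Isozyme shares, the Hadhb to Hadha ratio and sums over gene pairs were chosen after values were seen and carry no test. No libraries were duplicates by a chi-square test of their counts.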

Additional observations from a re-analysis of the deposited data

How the results depend on the processing

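Across 906 values of single members under the alternatives, 833 stayed on the same side of the threshold, 53 lost the call and 20 gained it. A call reversed its direction in 0 of them. Members that were not called could change sign, as Echdc1 did (log2 fold change 0.31, and down to -0.06 with 1 library left out). The count of members called higher, 2, was 5 with no filter, 4 by DESeq2 and 1 by limma-voom, and 0 to 3 when 1 library was left out. The count called lower, 14, was 12 to 18 under the other settings and 6 to 15 with 1 library left out. Over all genes 2501 were called, and 1129 to 2780 with 1 library left out, and 22 partner genes, against 11 to 25. Of the marker genes 26 were called, 41 with no filter and 16 to 30 with 1 library left out. The cause of these shifts was not tested. The labels do not say whether replicate numbers pair the libraries, and pairing was not tested. Correlations of same-numbered deviations were 0.135, -0.0214 and 0.115, with 4 of 6 libraries closest to their own number. A replicate block gave 2 members higher and 16 lower, 2880 genes, 28 partner genes and 24 markers. A level of 3 counts was 0.0734 to 0.121 CPM per library, and 11 members lay below the filter on low counts.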
